A study of Mus musculus with 6 samples.

Results

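Axon guidance ligands and receptors are the secreted and membrane proteins that steer growing nerve fibres, here measured in fibroblasts. They were taken as the protein-coding genes of the deposited count table whose symbols mark them as semaphorins (Sema), plexins (Plxn), Slit, Robo, Unc5, ephrins (Efna, Efnb), Eph receptors (Epha, Ephb) or Flrt proteins, together with the neuropilins Nrp1 and Nrp2, the netrins Ntn1 and Ntn4, and Neo1. The rule found 66 genes among the 15932 protein-coding and 23842 total genes of the table. One of them, Unc50, shares only the start of its symbol with the Unc5 receptors and is not known as a guidance gene. For Dcc, the classical netrin receptor named in the rule, the count table held no protein-coding row. The RNA came from mouse embryonic fibroblasts (MEF), cultured connective-tissue cells grown out of embryos, and the strain was C57BL/6. The 3 libraries of the first group carry the label NGLY1-/- and are called knockout-labelled here, and the 3 of the second group are labelled WT (wild type). NGLY1 is the cytosolic enzyme that removes N-glycans from misfolded glycoproteins. Both groups were grown without treatment in a high-glucose medium with serum. Neither the deleted stretch of Ngly1 nor the age of the embryos is stated. Nothing says that the libraries of a group came from separate embryos or lines, so the p-values only measure how these samples spread, which may be technical.

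Each ligand family signals through its own receptors. Secreted class 3 semaphorins bind a neuropilin held together with an A-type plexin, except that Sema3e binds Plxnd1 directly, and the membrane-bound semaphorins bind plexins without needing a neuropilin. Slit proteins bind Robo receptors. Netrin-1 attracts through Dcc and Neo1 and repels through Unc5 receptors, and Flrt proteins, which span the membrane, bind Unc5 receptors and latrophilins on neighbouring cells. Ephrins and Eph receptors sit on opposing cells and signal in both directions. Outside the nervous system the same families guide vessels, neural crest and mesenchymal cells, and fibroblasts use them for contact repulsion and migration.

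The promoter regions below belong to the 3 tested genes with the largest rises, Flrt2, Robo1 and Plxnc1, and to the one with the largest decrease, Sema4g, and are shown because these genes moved furthest between the groups. Each runs 5′ to 3′ on the gene's strand from 250 bases before to 50 after the annotated start. They are RefSeq sequences of GRCm38.p6, at chr12:95691976-95692275 (+ strand) for Flrt2, chr16:72662899-72663198 (+ strand) for Robo1, chr10:94944796-94945095 (- strand) for Plxnc1 and chr19:44989094-44989393 (+ strand) for Sema4g. The windows of Robo1 and Sema4g lie wholly inside the annotated range of their gene and those of Flrt2 and Plxnc1 partly, and counts per gene do not show which start was used. Capitals mark matches on either strand to any of 6 motifs: the GC box GGGCGG, the TATA box TATAAA, the AP-1 site TGANTCA, the TEAD site CATTCC, the interferon-stimulated response element (GAAA, any 2 bases, GAAA) and the cAMP response element TGACGTCA.
Flrt2: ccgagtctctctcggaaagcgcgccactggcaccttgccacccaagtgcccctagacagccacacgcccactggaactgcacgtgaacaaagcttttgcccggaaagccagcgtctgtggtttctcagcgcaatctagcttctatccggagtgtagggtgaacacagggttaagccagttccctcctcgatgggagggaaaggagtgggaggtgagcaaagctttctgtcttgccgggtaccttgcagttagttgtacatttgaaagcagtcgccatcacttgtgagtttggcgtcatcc
Robo1: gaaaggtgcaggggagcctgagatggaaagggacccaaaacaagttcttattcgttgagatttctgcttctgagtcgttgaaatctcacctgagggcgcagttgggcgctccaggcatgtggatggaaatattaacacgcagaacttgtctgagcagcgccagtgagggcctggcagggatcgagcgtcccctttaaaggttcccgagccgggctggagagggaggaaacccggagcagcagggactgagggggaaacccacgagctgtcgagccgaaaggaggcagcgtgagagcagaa
Plxnc1: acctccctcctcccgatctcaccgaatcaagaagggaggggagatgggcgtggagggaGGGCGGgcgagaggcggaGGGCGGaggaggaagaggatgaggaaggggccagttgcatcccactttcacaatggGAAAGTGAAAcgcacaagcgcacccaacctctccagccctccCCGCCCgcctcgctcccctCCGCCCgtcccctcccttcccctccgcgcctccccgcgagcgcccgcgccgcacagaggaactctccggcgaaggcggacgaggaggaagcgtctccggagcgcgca
Sema4g: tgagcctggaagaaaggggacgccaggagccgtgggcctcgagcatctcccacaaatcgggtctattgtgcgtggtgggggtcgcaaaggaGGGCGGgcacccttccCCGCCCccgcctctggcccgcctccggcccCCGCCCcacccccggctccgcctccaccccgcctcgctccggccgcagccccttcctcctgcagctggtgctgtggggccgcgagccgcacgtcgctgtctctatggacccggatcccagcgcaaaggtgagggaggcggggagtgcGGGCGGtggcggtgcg

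The windows of Flrt2 and Robo1 held 0 matches to the 6 motifs, with 14 and 15 CpG pairs. That of Plxnc1 held 4 GC boxes, 30 CpG pairs and 1 match to the interferon-stimulated response element, and that of Sema4g 4 GC boxes and 30 CpG pairs. Of the 66 genes, 56 had such windows, 72 windows in all. GC boxes were found in 72.2% of these 72 and in 35.7% of all 32851 windows of the table. The 2 sets are unlike, since the guidance genes are all protein-coding and the full set was not limited by gene type. The median number of CpG pairs was 19.5 in the 72 windows and 7 in the full set. The response element was found in 2 of the 72 (2.78%), those of Plxnc1 and Sema6b, against 3.44% of all windows. Plxnc1 was higher and Sema6b lower in the knockout-labelled libraries. A match is a run of letters, and binding was not measured.

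Of the 66 genes, 56 had enough counts to be tested. In edgeR's quasi-likelihood test 36 of them passed a false discovery rate of 5%, 17 with higher and 19 with lower levels in the knockout-labelled group. This share, 64.3%, was close to the 60.9% of all 15039 tested genes that passed (30.7% higher and 30.2% lower), so that a call by itself is not particular to guidance genes. The sizes were larger: 27 of the 56 (48.2%) passed with a change of at least 2-fold, 14 higher and 13 lower, against 28.5% of all tested genes and 27% of the tested protein-coding ones. Their median absolute log2 fold change was 0.999, against 0.594 over all tested genes. The CPM ranges of the groups (CPM, a gene's count scaled to the size of its library) did not overlap for 37 of the 56, or 66.1%, against 67.3% of all tested genes. The median signed log2 fold change was -0.07 for the 56 and -0.04 for all tested genes.

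**Figure D1:**
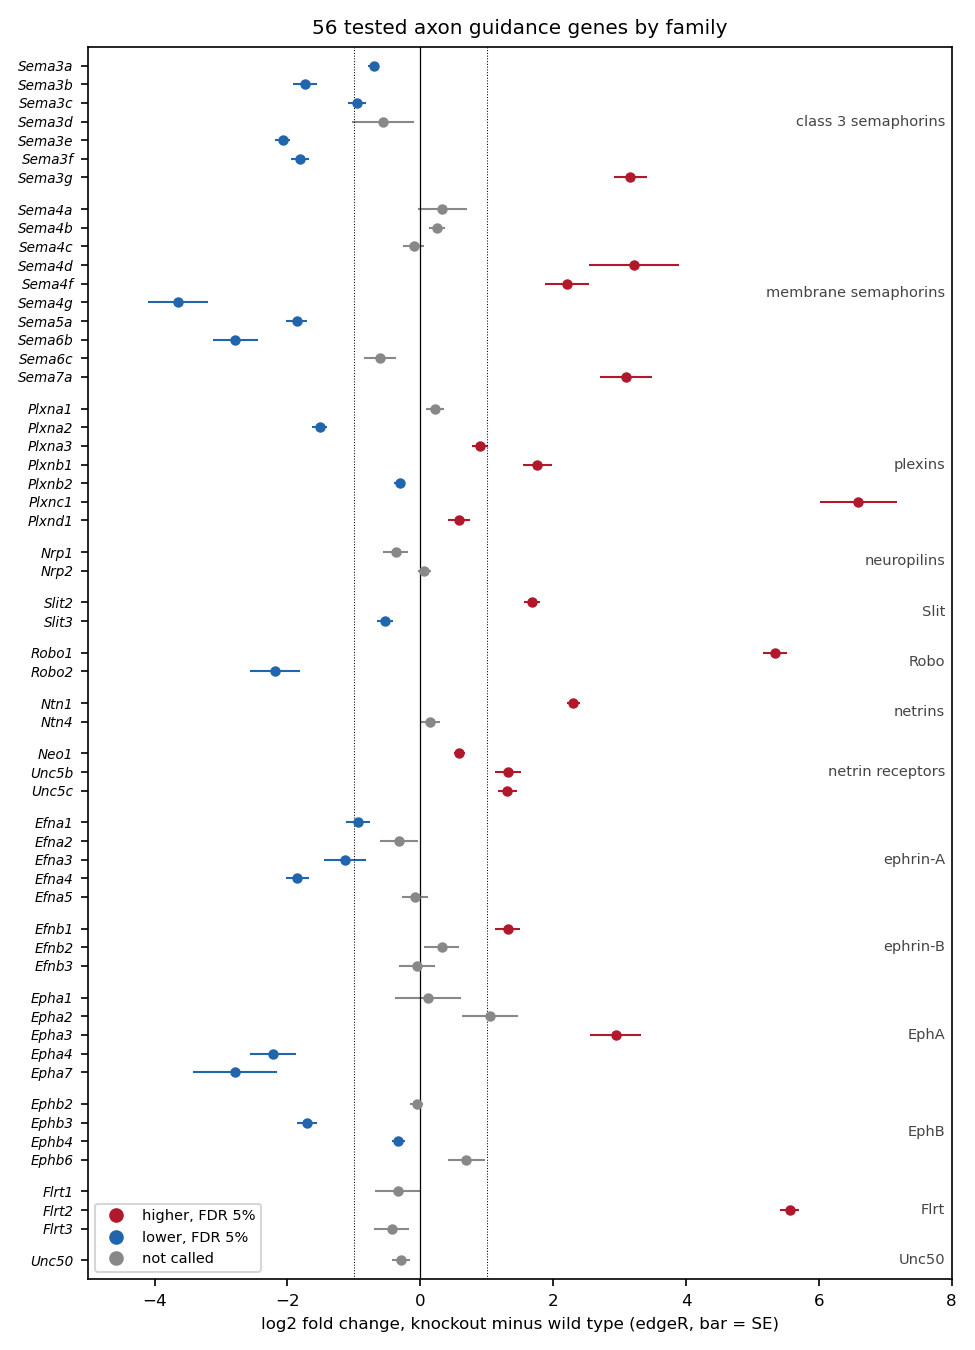
Log2 fold change of knockout-labelled minus wild-type libraries (horizontal axis) for the 56 tested genes, ordered by family; points are edgeR estimates, bars are standard errors, dotted lines mark a 2-fold change, and colours give the call at a false discovery rate of 5%. Among the red points Plxnc1, Flrt2 and Robo1 lie farthest to the right at 6.60, 5.56 and 5.34, and among the blue points Sema4g lies farthest to the left at -3.64.

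Library totals ran from 27323577 to 37841558 counts, and the 66 genes took 0.364% to 0.391% of them in the knockout-labelled libraries and 0.300% to 0.321% in the wild-type libraries. Slit2 alone gave 21.7% to 24.3% of the counts of the 66 genes in the knockout-labelled group and 8.83% to 10.4% in the wild-type group, and without it the summed CPM of the other 65 overlapped. The counts of Ngly1 itself were 618, 420 and 457 under the knockout label and 668, 632 and 307 under the wild-type label (adjusted p = 0.99 in edgeR), which does not check the genotype where only a part of the gene is deleted, so directions rest on the labels. The 10 fibroblast markers summed to 10500 to 11700 CPM in the knockout-labelled and 8080 to 9030 CPM in the wild-type libraries, with 2 of 9 tested higher and 5 lower and Lum at or near 0. Fn1 alone turned that direction, and the other 9 summed to 3660 to 4220 against 5980 to 6690 CPM. Of 12 neuronal markers the count table held 7, and these summed to 60 to 71.8 CPM and 37.3 to 45.1 CPM. Without Tubb3 the other 6 summed to 24.8 to 30.9 against 23.3 to 30.6 CPM and overlapped. Tubb3 was called 2.79-fold higher and Stmn2 55.1-fold higher, the latter with 339 against 6 counts summed over the groups. Map2 and Gap43 did not pass (log2 fold changes -0.24 and 0.18). Rbfox3, Syt1 and Elavl3 had at most 4 counts in a library. Of the markers of Schwann cells and neural crest, the count table held 5 of 8. These summed to 9.22 to 10.1 and 18.1 to 27.8 CPM, with Erbb3 (2.75-fold) and Mbp (37.6-fold) lower. Without Erbb3 the other 4 summed to 2.54 to 3.81 against 4.98 to 5.83 CPM and stayed apart. Of the endothelial ones 5 of 8 summed to 2.82 to 2.95 and 1.72 to 2.49 CPM. Kdr was called higher (1.93-fold), and Pecam1, Cdh5, Esam and Tek were under 1 CPM. Without Kdr the other 4 summed to 0.507 to 0.792 against 0.693 to 1.2 CPM and overlapped. In counts summed over the knockout-labelled group against wild type, Pecam1 had 2 against 27, Esam 8 against 37 and Cdh5 6 against 17. Tek had 53 against 23 and did not pass. The 8 smooth muscle and pericyte markers summed to 432 to 523 against 373 to 383 CPM. Of these, 4 were higher, among them Acta2 (1.95-fold) and Des (7.47-fold), and 2 lower, Cnn1 (69-fold) and Pdgfrb (1.71-fold). Without Acta2 the other 7 summed to 248 to 283 against 256 to 289 CPM and overlapped. Of the epithelial markers 5 of 7 summed to 0.701 to 1.53 against 1.87 to 2.62 CPM, with Krt8 (22.6-fold) and Cdh1 (2.84-fold) lower. Without Krt8 the other 4 summed to 0.61 to 1.5 against 0.988 to 1.62 CPM and overlapped. Of the macrophage markers 6 of 7 summed to 2.48 to 2.71 against 2.05 to 3.66 CPM. Their part in the results was not tested. In a culture, fewer cells of a type and less RNA per cell cannot be told apart.

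The main Slit ligand rose, while the Robo receptors changed their leading member. Slit2 gave 87.3% to 90.9% of the Slit counts in the wild-type group and 96.9% to 97.8% in the knockout-labelled group. Slit2, a large secreted repellent (chr5:47981291-48307735 in GRCm38), stood at 885, 881 and 1010 CPM in the knockout-labelled libraries and 263, 268 and 334 CPM in the wild-type libraries. All knockout-labelled values lay above all wild-type values, a rise of 3.21-fold (log2 fold change 1.68, SE 0.12; adjusted p = 2.12e-06 in edgeR). It was the most abundant of the 66 genes per kilobase of transcript in the knockout-labelled libraries (92.9 ± 7.38 CPM per kb, SD, n = 3) and ranked 5 in the wild-type libraries (28.9 ± 3.94). Slit3 fell by 0.53 on the log2 scale, with 24.4 ± 2.94 against 35.1 ± 2.19 CPM (SD, n = 3 each; its adjusted p = 0.00306 in edgeR). Slit1, expressed mainly in neural tissue, was counted 41, 25 and 7 times under the wild-type label and 1, 0 and 0 times under the knockout label. The ratio is 69.8, its counting interval 12.1 to 2792, and without knockout replicate 1 the group had 0 counts. Slit1 did not pass the filter on low counts, and with no filter its adjusted p in edgeR was 2.12e-06.

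Robo1 and Robo2, neighbouring receptor genes on chromosome 16, went in opposite directions. Robo1 (chr16:72027518-73047491) stood at 24.6, 22.8 and 25.1 CPM in the knockout-labelled libraries and at 0.664, 0.642 and 0.439 CPM in the wild-type libraries, in counts 835, 748 and 892 against 27, 25 and 12. This was a 40.5-fold rise (log2 fold change 5.34, SE 0.18; adjusted p = 2.36e-08 in edgeR), with groups far apart and little spread within them. Robo2 (chr16:73891976-75447443) had only 13, 19 and 15 counts, against 108, 90 and 36 in wild type, and fell 4.55-fold (adjusted p = 0.000579 in edgeR). Robo2 thus gave 75.0% to 78.8% of the Robo counts of each wild-type library and Robo1 97.4% to 98.5% of those of each knockout-labelled library. Robo3 had at most 4 counts in any library and was not tested. The summed Robo level went from 2.73 ± 0.854 to 24.7 ± 1.15 CPM (SD, n = 3 each).

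**Figure D2:**
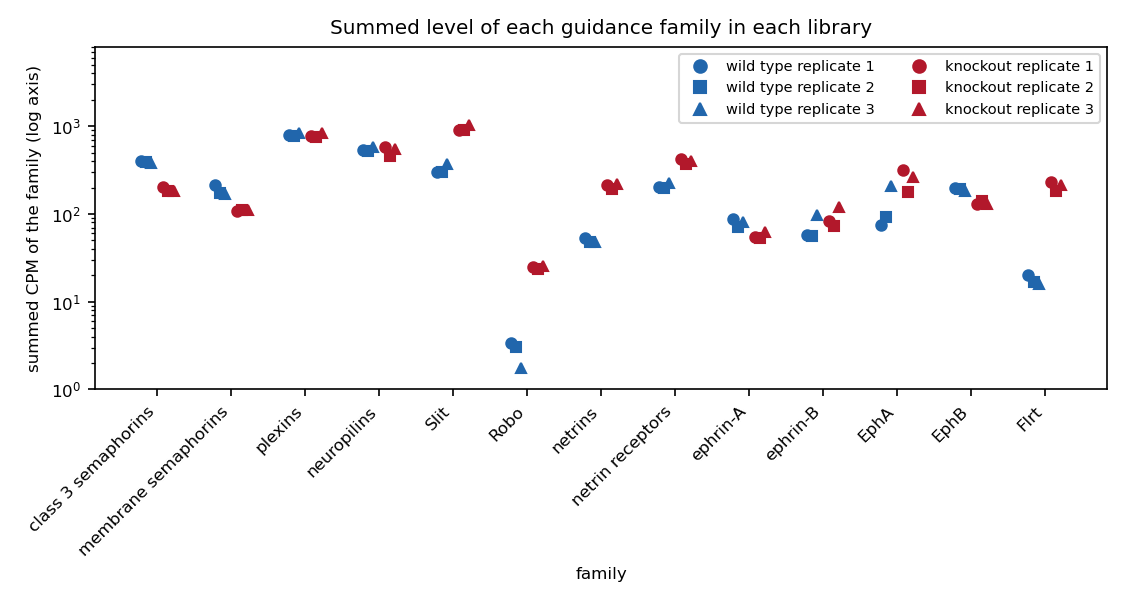
Summed CPM of each of 13 guidance families (log axis) in each library; blue symbols are wild-type and red symbols knockout-labelled libraries, and the symbol shape gives the replicate number. The groups separate upward for Slit (907 to 1033 against 302 to 367 CPM), Robo, netrins, netrin receptors and Flrt, and downward for both groups of semaphorins, ephrin-A and EphB, while plexins, neuropilins, ephrin-B and EphA overlap.

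Netrin-1 and the netrin receptors rose together. Ntn1, a laminin-related secreted guidance cue, stood at 199, 184 and 208 CPM in the knockout-labelled libraries and 43.0, 38.8 and 37.7 CPM in the wild-type libraries, 4.95-fold higher (chr11:68209364-68386826; log2 fold change 2.31, SE 0.10; adjusted p = 8.04e-08 in edgeR). Ntn4, which acts mainly in basement membranes, had 10.9 ± 1.99 and 9.86 ± 0.501 CPM (SD, n = 3 each) with overlapping ranges (adjusted p = 0.44 in edgeR). All 3 tested receptors were called higher, against 30.7% of all tested genes. Unc5b, a repulsive receptor also active in vessels, stood at 192, 145 and 179 CPM against 56.8, 57.4 and 92.6 CPM, 2.5-fold higher, with wild-type replicate 3 above the rest of its group. Unc5c stood at 53.5, 54.0 and 47.3 CPM against 24.3, 21.4 and 16.5 CPM, 2.48-fold higher, and no library of either group reached the other. Of the 8 other tested genes within 1 Mb of Unc5c, 5 were higher and 2 lower, with a median log2 fold change of 2.12. The part of this neighbourhood in the rise of Unc5c was not tested. Neo1 (neogenin), the Dcc relative that also binds repulsive guidance molecules, was 1.5-fold higher, at 178 ± 2.10 against 118 ± 3.90 CPM (SD, n = 3 each; adjusted p = 0.000179 in edgeR). It lies on chromosome 9, whose 810 tested genes had a median log2 fold change of -0.45. Unc5d had at most 3 counts in a library.

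Flrt2, an adhesion protein that binds Unc5 receptors, especially Unc5d, rose most among the well-counted guidance genes. It stood at 223, 168 and 202 CPM in the knockout-labelled libraries and at 4.40, 3.88 and 4.32 CPM in the wild-type libraries (7564, 5527 and 7181 against 179, 151 and 118 counts), 47.2-fold higher (chr12:95692006-95785215; log2 fold change 5.56, SE 0.14; adjusted p = 5.11e-09 in edgeR). The wild-type libraries agreed closely and lay far below the lowest knockout-labelled library. No other tested gene lies within 1 Mb of Flrt2. Its relatives did not pass: Flrt1 had 7.42 ± 3.56 against 9.31 ± 2.34 CPM and Flrt3 3.04 ± 0.993 against 4.10 ± 0.304 CPM (SD, n = 3 each; adjusted p = 0.426 and 0.178 in edgeR). Flrt2 gave 21.9% to 27.3% of the Flrt counts of each wild-type library and 92.3% to 96.6% of those of each knockout-labelled library. Both relatives overlap other genes, Macrod1 and Macrod2, and because the strand setting is unknown, either gene could hold reads of the other. Of the latrophilins, the other Flrt partners, Adgrl3 was 2.55-fold higher (adjusted p = 6.89e-06 in edgeR), and Adgrl1 and Adgrl2 had log2 fold changes of 0.22 and 0.26 that did not pass.

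**Figure D3:**
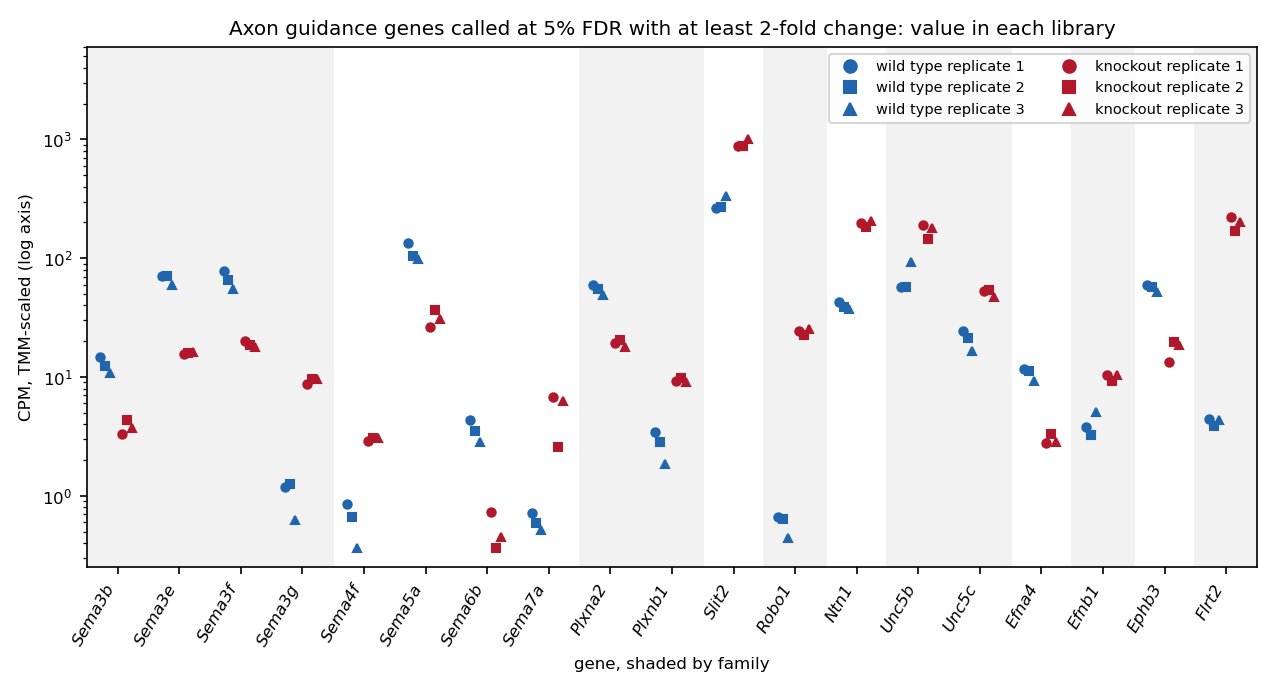
CPM in each library (log axis) of the 19 guidance genes that passed the false discovery rate of 5% with at least 2-fold change and a mean of at least 100 counts in the higher group; shading separates families, blue symbols are wild-type and red symbols knockout-labelled libraries. Red and blue symbols do not overlap for any of the 19, with the widest gaps for Flrt2 and Robo1. Choosing genes by call and fold change favours such gaps, and the groups did not overlap for 67.3% of all tested genes.

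Of the 7 secreted class 3 semaphorins, 5 fell and 1 rose, against 30.2% and 30.7% of all tested genes. Their summed level went from 391 ± 6.95 to 189 ± 13.0 CPM (SD, n = 3 each). Sema3e, the Plxnd1 ligand that repels endothelial cells, stood at 15.6, 15.9 and 16.2 CPM in the knockout-labelled libraries and 71.0, 70.3 and 59.0 CPM in the wild-type libraries, 4.20-fold lower (chr5:14025276-14256689; adjusted p = 2.70e-07 in edgeR). Sema3f, a ligand of Nrp2, stood at 20.1, 18.8 and 17.9 against 77.9, 65.4 and 55.5 CPM, 3.50-fold lower. Its neighbour on chromosome 9, Sema3b, stood at 3.33, 4.39 and 3.72 against 14.8, 12.3 and 10.8 CPM, 3.31-fold lower. In each of these 3 genes every knockout-labelled library lay below every wild-type library. Sema3a, the best-known growth-cone-collapsing semaphorin and a ligand of Nrp1, was 1.63-fold lower (92.8 ± 3.92 against 151 ± 4.89 CPM), and Sema3c, known from the cardiac outflow tract, 1.93-fold lower (47.8 ± 9.12 against 92.4 ± 8.42 CPM; SD, n = 3 each). Sema3d, near 1 CPM in both groups, did not pass (log2 fold change -0.56, adjusted p = 0.316 in edgeR). Sema3g went the other way, at 8.82, 9.66 and 9.56 CPM against 1.18, 1.26 and 0.622 CPM, 8.96-fold higher (chr14:31217873-31230352; adjusted p = 4.10e-06 in edgeR).

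Of 10 tested membrane-bound semaphorins 3 were higher and 3 lower, near the 30.7% and 30.2% of all tested genes, while their summed CPM was lower in every knockout-labelled library (109 to 112 against 167 to 212 CPM). Sema5a carried that difference: the other 11 summed to 73.6 to 82.8 against 67.9 to 76.7 CPM, which overlap. The most abundant of those that passed, Sema5a, a semaphorin with thrombospondin repeats, stood at 26.5, 36.5 and 30.7 CPM against 136, 105 and 99.0 CPM, 3.63-fold lower (chr15:32244813-32696341; adjusted p = 6.22e-06 in edgeR). Sema6b, a ligand of A-type plexins, stood at 0.737, 0.366 and 0.451 against 4.38, 3.52 and 2.85 CPM, 6.89-fold lower. Sema4g had 5, 3 and 2 counts against 52, 56 and 29, 12.5-fold lower. None of these 3 genes overlapped between the groups. Among those that rose, Sema7a, the GPI-anchored ligand of Plxnc1 and of integrins, stood at 6.81, 2.59 and 6.32 against 0.713, 0.591 and 0.512 CPM, 8.54-fold higher (chr9:57939596-57962865; adjusted p = 9.52e-05 in edgeR), with knockout replicate 2 below the others of its group. Sema4f stood at 2.89, 3.05 and 3.04 against 0.860, 0.668 and 0.366 CPM, 4.63-fold higher. Sema4d, the Plxnb1 ligand, had 23, 37 and 24 counts against 5, 0 and 4, 9.33-fold higher (log2 fold change 3.22, and 2.61 without wild-type replicate 2, where it had 0). Sema4a, Sema4b, Sema4c and Sema6c did not pass, with log2 fold changes of 0.33, 0.25, -0.10 and -0.60. For Sema6c the adjusted p in edgeR was 0.0544, and without wild-type replicate 3 it was 0.00079. Sema6a and Sema6d had at most 6 counts in a library.

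Plexins, the semaphorin receptors, were higher for 4 of 7 tested genes and lower for 2, against 30.7% higher and 30.2% lower among all tested genes. Plxnc1, the Sema7a receptor, was counted 91, 62 and 68 times under the knockout label and 0, 1 and 1 times under the wild-type label, a ratio of 116 (counting interval 31.6 to 961; chr10:94790866-94945015; adjusted p = 7.75e-06 in edgeR). Without wild-type replicate 1, its fitted log2 fold change moved from 6.60 to 5.99. The receptor and its ligand Sema7a were thus both under 1 CPM in every wild-type library and both rose. Plxnb1, the Sema4d receptor, stood at 9.20, 9.84 and 9.02 against 3.46, 2.85 and 1.87 CPM, 3.40-fold higher (adjusted p = 8.72e-05 in edgeR), so that Sema4d and its receptor were also both higher. Plxna2, a receptor for class 6 semaphorins, stood at 19.2, 20.5 and 18.0 against 59.9, 54.8 and 49.4 CPM, 2.85-fold lower (chr1:194619791-194816869; adjusted p = 2.50e-06 in edgeR). Plxna3, on chromosome X, was 1.86-fold higher (85.8 ± 4.42 against 46.1 ± 7.34 CPM) and Plxnd1, the Sema3e receptor, 1.5-fold higher (38.8 ± 2.5 against 25.8 ± 6.68 CPM; SD, n = 3 each). The call of Plxnd1 was lost when libraries were scaled by their totals only (adjusted p = 0.0532 in edgeR). Plxnb2, the most abundant guidance gene per kilobase in the wild-type libraries (65.1 ± 0.177 CPM per kb, SD, n = 3), was 1.24-fold lower, a call lost without knockout replicate 2 (adjusted p = 0.0604 in edgeR) and without wild-type replicate 2 (0.0529). Plxna1 did not pass (291 ± 31.3 against 250 ± 42.4 CPM, SD, n = 3 each; adjusted p = 0.172 in edgeR). It was called higher without wild-type replicate 3 (log2 fold change 0.39, adjusted p = 0.00304 in edgeR). Plxna4 and Plxnb3 had at most 2 counts in a library.

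The neuropilins, co-receptors of the class 3 semaphorins and of VEGF, did not pass. Nrp2 stood at 438, 378 and 442 CPM in the knockout-labelled and 412, 381 and 410 CPM in the wild-type libraries (log2 fold change 0.06, SE 0.10; adjusted p = 0.599 in edgeR). Nrp1 stood at 137, 83.0 and 109 against 122, 135 and 168 CPM (log2 fold change -0.37, SE 0.19; adjusted p = 0.111 in edgeR). It was called lower without knockout replicate 1 (adjusted p = 0.028 in edgeR) and when scaled by library totals only (adjusted p = 0.023). Both groups thus held ample neuropilin RNA, with Nrp2 and Nrp1 ranking 2 and 3 among the 66 genes per kilobase in the wild-type libraries and 3 and 7 in the knockout-labelled ones.

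The GPI-anchored ephrin-A ligands were lower for 3 of 5 and higher for 0, against 30.2% lower among all tested genes. Their summed level was lower in every knockout-labelled library, but overlapped without Efna1 (40.6 to 50.6 against 47.1 to 63.4 CPM). Efna4 stood at 2.80, 3.32 and 2.85 CPM in the knockout-labelled and 11.7, 11.3 and 9.29 CPM in the wild-type libraries, 3.60-fold lower (chr3:89333393-89338028; adjusted p = 1.16e-05 in edgeR). Its neighbour Efna3 had 26, 51 and 36 counts against 98, 106 and 60, 2.20-fold lower (adjusted p = 0.01 in edgeR), although it overlaps Gm15998, a gene of similar level that was also lower, with the same doubt over strand. Efna1, the main Epha2 ligand, had 12.4 ± 0.325 against 23.6 ± 6.05 CPM (SD, n = 3 each) with no overlap, 1.91-fold lower (adjusted p = 0.00126 in edgeR). Efna2 and Efna5 did not pass, the former with log2 fold change -0.32 and adjusted p = 0.34, the latter with -0.08 and 0.746 in edgeR. Without wild-type replicate 3, Efna2 was called lower (log2 fold change -0.52, adjusted p = 0.0418 in edgeR). Of the transmembrane ephrin-B ligands, Efnb1, on chromosome X and known from craniofacial development, stood at 10.4, 9.26 and 10.4 against 3.81, 3.26 and 5.08 CPM, 2.49-fold higher (chrX:99136061-99149022; adjusted p = 0.000217 in edgeR). Efnb2, the arterial ephrin, stood at 71.3, 61.2 and 106 against 51.6, 50.7 and 89.2 CPM and did not pass (adjusted p = 0.324 in edgeR). The libraries numbered 3 were the highest of both groups, and without both of them Efnb2 was called higher (log2 fold change 0.39, adjusted p = 0.00474 in edgeR). Efnb3 did not pass either, with log2 fold change -0.05 and adjusted p = 0.888 in edgeR.

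Among the Eph receptor tyrosine kinases, 1 of 9 tested genes was higher and 4 were lower, a called share of 55.6% against 60.9% of all tested genes. Epha2, the most abundant of them, stood at 318, 175 and 260 CPM in the knockout-labelled libraries and 71.2, 89.2 and 205 CPM in the wild-type libraries. Wild-type replicate 3 was above the rest of its group and above knockout replicate 2, and the 2.07-fold difference did not pass (log2 fold change 1.05, SE 0.42; adjusted p = 0.0669 in edgeR). Without that library the log2 fold change was 1.66 and the adjusted p in edgeR 0.00896. Ephb3, a receptor for B-type ephrins, stood at 13.5, 19.8 and 18.5 against 59.5, 57.2 and 51.5 CPM, 3.25-fold lower (chr16:21204620-21223309; adjusted p = 7.29e-06 in edgeR). Ephb4, the venous Efnb2 receptor, was 1.26-fold lower (71.8 ± 6.77 against 90.3 ± 3.88 CPM, SD, n = 3 each), a call lost when knockout replicate 1 (adjusted p = 0.0503 in edgeR), knockout replicate 3 (0.0753) or wild-type replicate 2 (0.0561) was omitted. Epha3 had 51, 41 and 49 counts against 9, 6 and 4, 7.68-fold higher. Epha4 had 12, 10 and 10 counts against 51, 61 and 44, 4.66-fold lower, and Epha7 1, 2 and 5 against 33, 21 and 8, 6.89-fold lower. These 3 genes were each under 2 CPM, and their groups did not overlap. Without knockout replicate 3 the log2 fold change of Epha7 moved from -2.79 to -3.51. Epha1, Ephb2 and Ephb6 did not pass, with log2 fold changes of 0.12, -0.05 and 0.69, although the groups of Ephb6 did not overlap (adjusted p = 0.0505 in edgeR). Without wild-type replicate 2 Ephb6 was called higher (adjusted p = 0.0257 in edgeR). Epha6, Epha8 and Epha10 had at most 7 counts in a library. Unc50 did not pass (log2 fold change -0.29, adjusted p = 0.1 in edgeR), and without wild-type replicate 3 it was called lower (log2 fold change -0.39, adjusted p = 0.00598).

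By role, 8 of 32 tested ligands were higher and 12 lower, and 9 of 23 tested receptors were higher and 7 lower. The called shares, 62.5% and 69.6%, lie near the 60.9% of all tested genes. The summed ligand level did not overlap between the groups (1810 ± 119 against 1120 ± 48.2 CPM, SD, n = 3 each), while that of the receptors did (2130 ± 171 against 1870 ± 135 CPM). The ligand gap rested on Slit2, without which the other 34 ligands summed to 821 to 929 against 796 to 866 CPM and overlapped. The 19 semaphorins, a part of the ligands, ran the other way, with sums of 292 to 314 CPM in the knockout-labelled and 551 to 609 CPM in the wild-type libraries.

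Several members lie side by side in the genome. Efna1, Efna3 and Efna4 lie within 66.3 kb on chromosome 3 and were all lower. Of the 73 other tested genes within 1 Mb of Efna1, the neighbouring ephrins included, 26 were lower and 11 higher. Over all of chromosome 3, 34.3% of the tested genes were lower and 24.5% higher. Sema3d, Sema3a, Sema3e and Sema3c lie within 5350 kb on chromosome 5, and 3 of these 4 semaphorins were lower. Of the 4 other tested genes among them, 1 was lower and 1 higher. Sema3b and Sema3f, 113 kb from end to end, were both lower, as were 30 and 31 of the 55 and 57 other tested genes within 1 Mb of each. Each count includes the other semaphorin, and the 2 ranges largely coincide. Over all of chromosome 9, 50.1% of the tested genes were lower. Robo1 rose and Robo2 fell with no other tested gene lying between them in the plot of neighbouring genes. Of the 8 other tested genes from Epha3 to Robo2 on chromosome 16, 4 were lower and 0 higher. Chromosome 16 as a whole had 48.4% of its tested genes lower and 19.3% higher. On chromosomes 2, 6, 9, 13, 16, 18 and X the median log2 fold change of the tested genes lay beyond 0.2 in either direction, a limit set after the values were seen. There, 14 of 18 tested guidance genes were called (77.8%), against 57.9% of those on other chromosomes and 60.9% of all tested genes. Of each chromosome's tested genes, 13.9% to 21.4% were called against its median and 39% to 52.3% with it. Of the 14 called guidance genes, 9 moved against the chromosome's median (Sema4f, Sema7a, Plxna3, Plxnb1, Plxnd1, Robo1, Neo1, Efnb1 and Epha3) and 5 with it (Sema3b, Sema3f, Sema4d, Robo2 and Ephb3). The part of the chromosome's shift in these 5 was not tested.

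**Figure D4:**
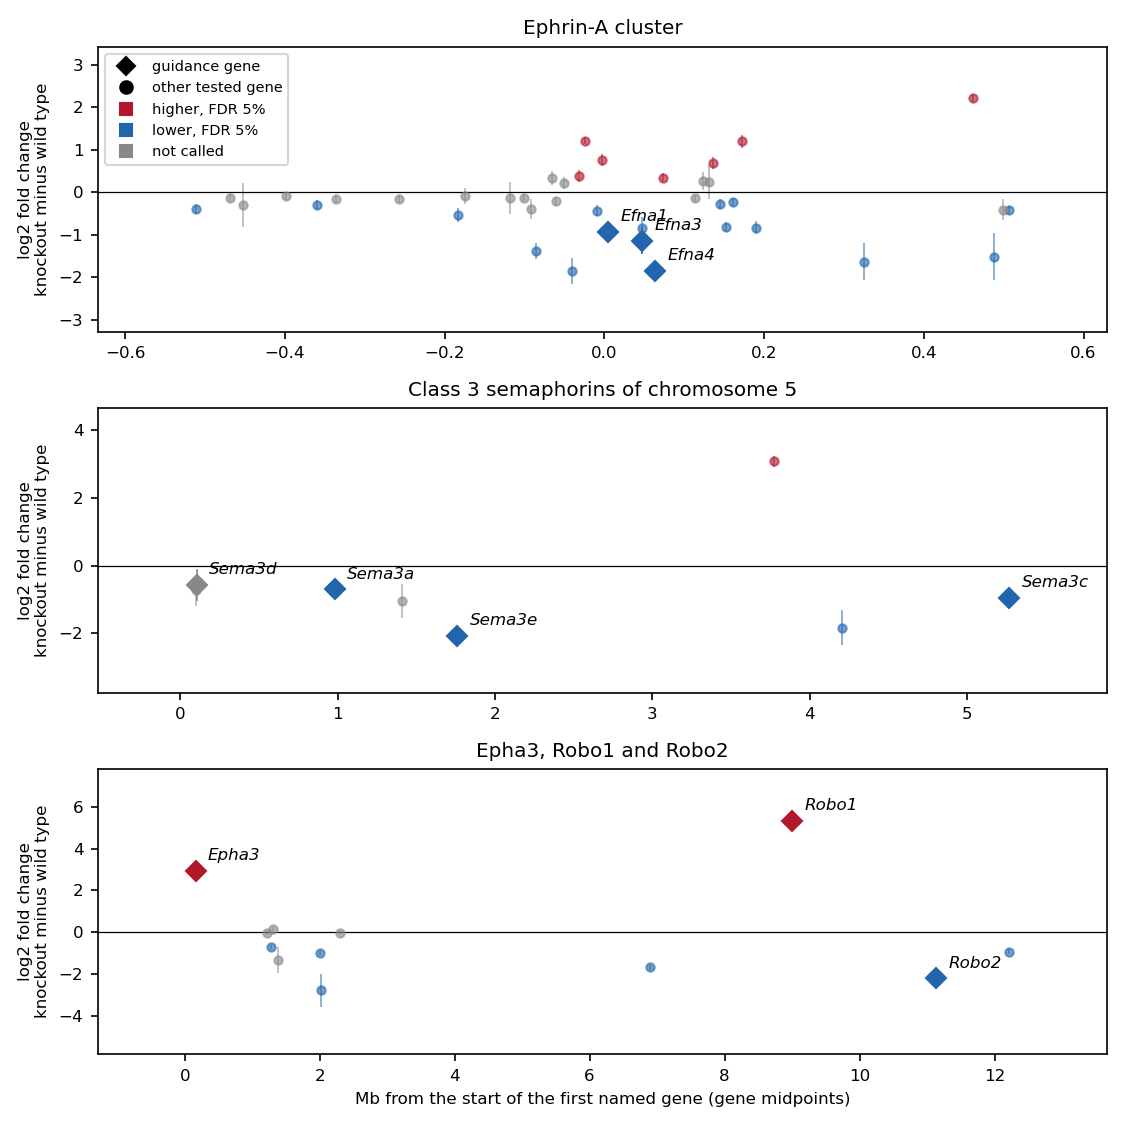
Log2 fold change (vertical axis, bars are standard errors) of the tested genes around 3 groups of neighbouring guidance genes, by distance in Mb from the start of the first of them; diamonds are guidance genes, circles other tested genes, and colours give the call at a false discovery rate of 5%. Efna1, Efna3 and Efna4 lie below 0 among genes called both ways, 3 class 3 semaphorins are blue, and Robo1 at 5.34 stands beside Robo2 at -2.19.

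The further genes of the pathway were taken from a list of 75, of which 62 were tested. Of these, 22 were higher and 28 lower. The called share was 80.6%, against 60.9% of all tested genes and 64.5% of the tested protein-coding ones. Of the 19 co-receptors, further ligands and sheddases tested, 6 were higher and 11 lower, and of the 43 cytoplasmic effectors 16 and 17, against 30.7% higher and 30.2% lower among all tested genes. The effectors with the smallest p among those that rose were Dpysl3 (CRMP4, a collapsin response mediator that binds microtubules and actin; 3.30-fold), Fyn (a kinase downstream of Eph receptors, plexins and Dcc; 3.31-fold), Enah (the actin regulator Mena; 2.97-fold) and Rasa1 (a Ras GTPase-activating protein that binds Eph receptors; 4.45-fold). Dpysl3 went from 188 ± 2.26 to 620 ± 25.7 CPM and Rasa1 from 81.0 ± 2.89 to 361 ± 62.2 CPM (SD, n = 3 each). Among those that fell, Srgap3, a Slit-Robo GTPase-activating protein, went from 14.6 ± 1.18 to 1.72 ± 0.315 CPM (SD, n = 3 each), 8.45-fold lower (adjusted p = 5.64e-07 in edgeR). Met, the hepatocyte growth factor receptor that pairs with B-type plexins, was 2.46-fold lower, the adaptor gene Grb10 2.07-fold lower and Vav3, an exchange factor downstream of Eph receptors, 3.04-fold lower.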

How the data were processed

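Per the labels' protocols, Trizol was used for extraction and a TruSeq stranded kit for total RNA libraries. The authors deposited raw counts, whole numbers per gene keyed by NCBI Gene ID, for 6 libraries, per the file headers. The submitters' processing notes name STAR 2.5.1b and mm10. How reads were counted, and with which strand setting, is not given in the sources used here. Of the 66 genes, 13 overlap another gene of the table and could have exchanged reads with it. Coordinates and promoters are from RefSeq GRCm38.p6, where all 66 gene IDs were found, and transcript lengths are those of the longest protein-coding GENCODE transcript.

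Genes kept by filterByExpr were tested in R 4.3.3 with edgeR 4.0.16 (TMM scaling, robust quasi-likelihood fit, genotype as the only term, two-sided), with Benjamini-Hochberg adjustment over all 15039 tested genes at a false discovery rate of 5%. The SE is the fold change over the root of the F statistic. Genes with 1 to 3 counts over a group have a ratio of the summed counts and its 95% exact interval, for counting error only. No set test was made. The guidance genes, lists and alternatives were chosen with earlier results of these data known. All 66 genes are named, with values per library for those past the threshold with at least 2-fold change and a mean of 100 counts in the higher group, and mostly counts for those below that mean. From the list of further pathway genes up to 4 each way were named by p. Alternatives were DESeq2 1.42.0, limma-voom (limma 3.58.1), other scalings and filters, the replicate number as a block and libraries left out. The edgeR step was tested on simulated data. Same-numbered libraries were not taken as pairs.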

Additional observations from a re-analysis of the deposited data

How the results depend on the processing

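The counts of guidance genes called higher and lower, 17 and 19, stayed within 1.5 times under every alternative run: 16 and 22 with library totals only, 18 and 21 with no low-count filter, 18 and 20 in the DESeq2 test, 19 and 19 in limma-voom, and 14 and 13 at 2-fold or more. Leaving out each library in turn gave 17 to 20 higher and 17 to 24 lower among the guidance genes, 8166 to 10203 calls over all genes and 45 to 55 in the list of further pathway genes. All 27 guidance genes called with at least 2-fold change kept their call and direction under the alternatives in which they were tested. With the replicate number as a block 20 were higher and 20 lower, the calls gained being Efnb2 (adjusted p = 0.0128), Epha2 (0.019), Ephb6 (0.0456) and Unc50 (0.0479). Nothing says that the numbers pair the samples. Deviations from the group means correlated at 0.0961, 0.0138 and 0.209 for libraries of the same number. For libraries of different numbers they correlated at -0.176 to 0.149. With 3 libraries per group these values do not decide whether the samples are paired. Scaling by library totals only shifted the median log2 fold change over all genes from -0.04 to -0.16. Genes that did not pass changed sign in places, and the cause was not tested. With library totals only, the log2 fold change was -0.014 for Epha1 and -0.056 for Nrp2. Omitting both libraries numbered 3 gave 0.0050 for Efna5, 0.021 for Efnb3 and -0.30 for Epha1. Leaving out single libraries gave -0.25 to 0.14 for Efna5, -0.20 to 0.071 for Efnb3, -0.10 to 0.48 for Epha1, -0.10 to 0.012 for Ephb2 and -0.20 to 0.043 for Sema4c. Depth limits the genes under 1 CPM, where a few counts decide the size of a change.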
